A study of Mus musculus with 2 samples.

Results

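The oxidative phosphorylation genes examined here are the 82 rows of a table of 14678 mouse genes whose symbols name a subunit of respiratory complexes I to IV, of ATP synthase (complex V), or cytochrome c. They were matched by gene symbol alone, although the set was chosen with earlier results of these data known. By symbol, 35 belong to complex I, 4 to complex II, 9 to complex III, 15 to complex IV and 15 to complex V. Cycs, the mobile carrier cytochrome c, was counted by itself. The symbol pattern also took in Cox4nb, a neighbour of Cox4i1 that encodes no oxidase subunit, and Atp5s and Atp5sl, which encode no structural subunit of ATP synthase. Cox7a2, Ndufb1, Ndufb4 and Ndufs5 were not analysed here.

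Sequence tags were counted per gene by digital gene expression (DGE) profiling in uteri of mice at gestation day 2.5 (G2.5), with 1 Dox+ library and 1 Dox- library. All females had the genotype VEGFtetO/tetO/beta-AKtg/wt, with 4 tet operator copies in both Vegf promoters and a tetR-Krab repressor driven by the beta-actin promoter in all tissues, and were mated with VEGFtetO/tetO males. Dox+ mice stayed on chow with 200 mg/kg doxycycline, which releases the repressor, while Dox- littermates were taken off it at 3 to 4 weeks of age, so that VEGF was repressed. The Dox+ mice, which served as controls, thus carried the same alleles and were exposed to the drug. Differences tied to doxycycline itself and to VEGF repression therefore cannot be told apart in these libraries. RNA was taken 6 weeks later, at 9 to 10 weeks of age, and material of 3 uteri was pooled for each library. With 1 library per condition, no difference below has a replicate check, and no test between conditions could be made. Vegfa, the repressed gene, had 247 copies in Dox+ and 125 in Dox-, a ratio of 0.518 (95% interval 0.415 to 0.645).

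Oxidative phosphorylation makes most of the ATP of resting tissue. Complex I takes electrons from NADH and complex II from succinate. Both pass them to ubiquinone, complex III moves them to cytochrome c, and complex IV gives them to oxygen. Complexes I, III and IV pump protons across the inner mitochondrial membrane, and ATP synthase uses the gradient. Apart from complex II, each complex joins subunits encoded in the nucleus, as here, with subunits encoded in mitochondrial DNA. The transcription factors NRF1, GABPA (of the ETS family) and YY1 are known for binding promoters of many of the nuclear genes.

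The values are copies, the number of tags counted for a gene in a library. The clean tags of the libraries were 5985925 in Dox+ and 5844314 in Dox-, and a ratio is the share of clean tags in Dox- over that in Dox+. Its 95% interval is an exact Clopper-Pearson interval, from how the tags of the gene divided between libraries, and covers counting error only. A gene is called higher or lower in Dox- where its combined copies reach 200 and its log2 ratio lies above 0.5 or below -0.5. Of the 6547 genes with 200 combined copies, 18.8% were called higher and 17.8% lower, 36.6% in all, and their median log2 ratio was 0.03.

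Of the 19 members called by this rule, 14 with a single RefSeq promoter window were considered for display. Atp5a1, also called, was left out by its genomic position before this count, whatever its windows. The 6 of the 14 with a motif match before the gene start are shown. Ndufb11, the member with the lowest log2 ratio among those with 200 combined copies, is shown after them. Each is the stretch of 250 bases before the gene start, written 5′ to 3′ on the strand of the gene, from RefSeq on build GRCm38.p6. Capitals mark matches to the NRF1 core GCGCANGCG or to the ETS core CCGGAAG, on either strand, and matches to NRF1 on opposite strands overlap.
Ndufa11 (chr17:56717512-56717761, plus strand): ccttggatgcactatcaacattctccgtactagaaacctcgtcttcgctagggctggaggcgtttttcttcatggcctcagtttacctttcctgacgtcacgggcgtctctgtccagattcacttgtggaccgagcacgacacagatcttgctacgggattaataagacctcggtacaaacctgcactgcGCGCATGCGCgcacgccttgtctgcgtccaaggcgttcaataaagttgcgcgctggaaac
Atp5g2 (chr15:102671048-102671297, minus strand): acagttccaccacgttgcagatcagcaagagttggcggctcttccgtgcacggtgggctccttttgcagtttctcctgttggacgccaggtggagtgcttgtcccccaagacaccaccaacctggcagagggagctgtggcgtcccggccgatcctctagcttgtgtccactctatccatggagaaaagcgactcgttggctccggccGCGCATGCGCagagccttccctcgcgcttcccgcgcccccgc
Cycs (chr6:50566570-50566819, minus strand): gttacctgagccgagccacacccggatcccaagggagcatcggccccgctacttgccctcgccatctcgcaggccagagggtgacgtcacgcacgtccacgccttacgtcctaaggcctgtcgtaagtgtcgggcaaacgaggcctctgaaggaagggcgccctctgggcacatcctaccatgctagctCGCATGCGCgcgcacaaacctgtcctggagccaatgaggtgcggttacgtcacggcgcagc
Atp5k (chr5:108434400-108434649, minus strand): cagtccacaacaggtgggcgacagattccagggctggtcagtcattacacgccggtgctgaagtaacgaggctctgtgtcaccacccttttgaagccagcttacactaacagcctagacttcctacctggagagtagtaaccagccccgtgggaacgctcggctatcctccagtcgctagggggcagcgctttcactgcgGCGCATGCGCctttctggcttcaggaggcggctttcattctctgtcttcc
Atp5e (chr2:174464102-174464351, minus strand): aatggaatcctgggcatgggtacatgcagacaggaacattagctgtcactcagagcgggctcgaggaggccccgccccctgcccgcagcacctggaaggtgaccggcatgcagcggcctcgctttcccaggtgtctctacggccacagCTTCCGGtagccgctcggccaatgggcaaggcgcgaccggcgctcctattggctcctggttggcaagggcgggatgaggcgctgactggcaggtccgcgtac
Uqcrh (chr4:116075071-116075320, minus strand): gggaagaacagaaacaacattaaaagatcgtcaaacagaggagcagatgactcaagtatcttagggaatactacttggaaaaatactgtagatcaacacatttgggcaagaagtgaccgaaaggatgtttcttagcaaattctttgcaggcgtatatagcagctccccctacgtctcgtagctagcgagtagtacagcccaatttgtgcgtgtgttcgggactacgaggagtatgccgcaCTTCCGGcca
Ndufb11 (chrX:20617620-20617869, minus strand): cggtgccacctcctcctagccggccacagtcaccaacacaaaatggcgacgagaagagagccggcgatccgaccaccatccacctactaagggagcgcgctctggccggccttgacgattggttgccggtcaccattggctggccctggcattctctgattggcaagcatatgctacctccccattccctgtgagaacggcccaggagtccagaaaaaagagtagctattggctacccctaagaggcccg

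The promoters of Ndufa11, Atp5g2 and Cycs, all called higher, and of Atp5k, called lower, each hold an NRF1 core. Atp5e, called higher, and Uqcrh, called lower, hold an ETS core, and Ndufb11 holds none of the motifs in this window. RefSeq promoter windows of 300 bases, with 50 bases after the start, were found for 66 of the 82 members. An NRF1 core occurred in 28.8% of these members and in 7.03% of all 27025 genes with a window. For the ETS core the shares were 24.2% and 9.93%, and for the YY1 core, AAGATGGC, they were 16.7% and 3.19%. The 27025 genes were not limited to the 14678 measured here and were not matched to the members by level. Among members with 200 combined copies, the median log2 ratio was 0.15 for the 19 with an NRF1 core and -0.02 for the 42 without one. Medians with and without an ETS core were 0.06 and 0.02, and those for YY1 were 0.03 and 0.01. The motifs were chosen after values were seen, and the differences between these medians were not tested. A match describes these letters and is no measure of binding.

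As a group the members stood at nearly the same level in both libraries. They held 112224 tags in Dox+ and 113379 in Dox-, which is 18748 and 19400 per 1000000 clean tags, a ratio of 1.03 (1.03 to 1.04). The summed tags of all genes had a ratio of 0.974 (0.972 to 0.975). Of the tags counted for all genes, members held 2.53% in Dox+ and 2.69% in Dox-. Of the 82 members, 73 had 200 combined copies or more, and 9 had fewer. Among the 73, 11 (15.1%) were called higher and 8 lower. In all 26.0% of them were called, beside 36.6% of all genes. The median log2 ratio was 0.05, with 41 members above 0 and 32 below. The counting interval of 52 of the 73 members (71.2%) excluded no change, beside 66.2% of all genes. Log2 ratios of single members ranged from -1.26 to 1.13, and those of the summed tags of a complex from -0.14 to 0.26. Of the genes that encode no subunit, Cox4nb had 288 copies in Dox+ and 310 in Dox-, Atp5sl 189 and 149, and Atp5s 35 and 32.

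**Figure D1:**
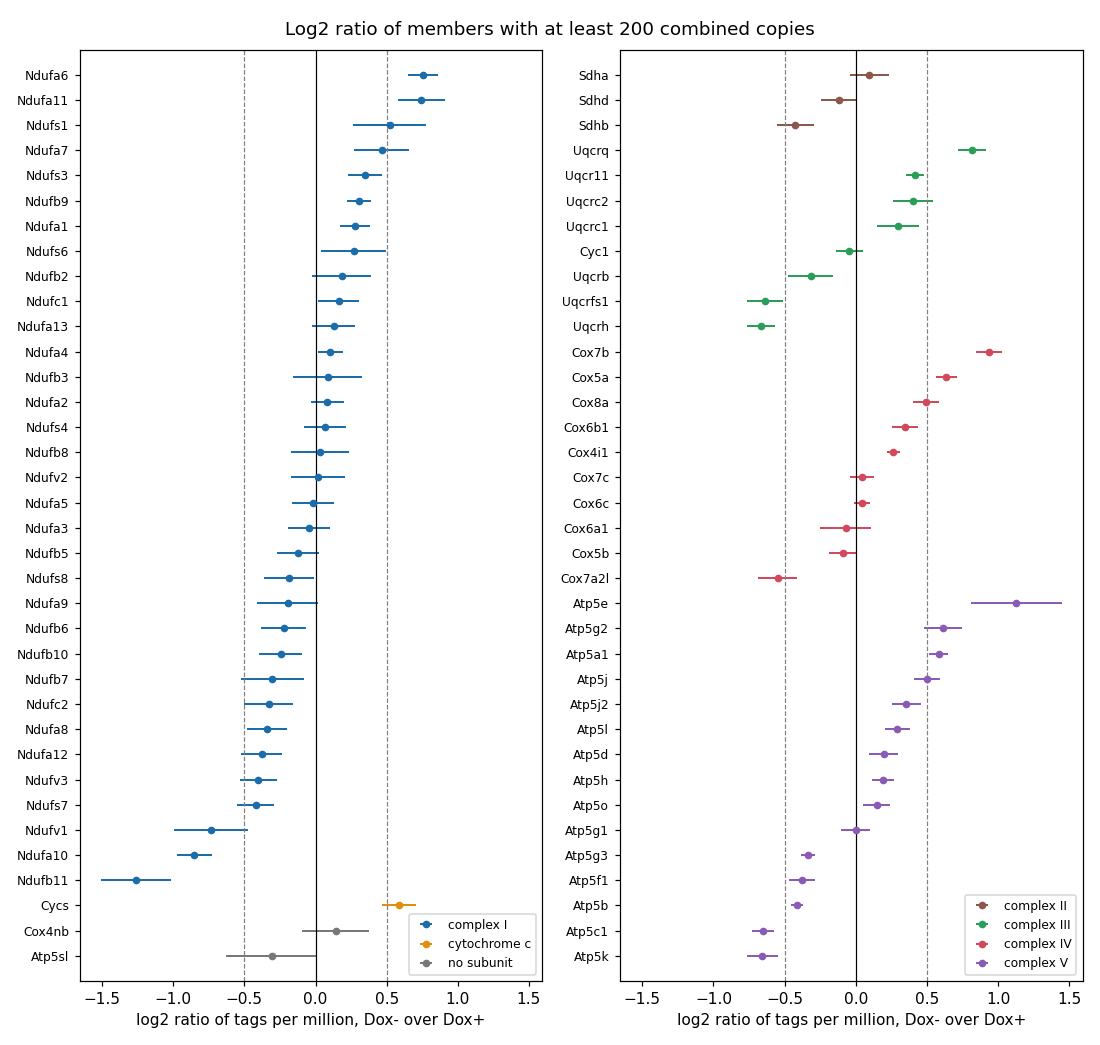
Log2 ratio of the share of clean tags (Dox- over Dox+, x axis) for members with at least 200 combined copies, ordered by complex, with 1 member not shown. Points compare 1 library of each condition, bars are 95% counting intervals, dashed lines mark -0.5 and 0.5. Complex I has members on both sides of 0 with Ndufb11 farthest to the left, and complexes III, IV and V also hold members on both sides. Cytochrome c and the genes that encode no subunit stand under complex I.

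By summed tags, complex IV stood highest in Dox- relative to Dox+. Its genes went from 24967 to 29197 tags, a log2 ratio of 0.26 (0.24 to 0.28). Complex III followed with 12291 and 13022 tags, a ratio of 1.09 (1.06 to 1.11). Complex I had 28400 and 27483 tags, 0.991 (0.975 to 1.01), an interval that includes no change in the share of clean tags. The sum over all genes had 0.974 (0.972 to 0.975). Complex V had 41968 and 39006 tags, 0.952 (0.939 to 0.965), and complex II 3110 and 2752, 0.906 (0.861 to 0.954). The complex V sum leaves out Usmg5, an ATP synthase subunit outside the symbol pattern, with 4765 copies in Dox+ and 8404 in Dox-. Its direction therefore holds only for the genes of the pattern. Single genes weighed on these sums. Without Atp5b, its member with the most tags, complex V had a ratio of 1.01 (0.997 to 1.03), and without Uqcr11 complex III had 0.991 (0.962 to 1.02). The median member gave another order, with log2 medians of 0.19 for complex V, 0.16 for complex IV, 0.13 for complex III, 0.00 for complex I and -0.12 for complex II. For complex V the sum and the median therefore differed in sign.

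Most complex I subunits lay within the limits. Of its 34 members with 200 combined copies, 3 were called higher and 3 lower, and 28 were not called. That is 17.6% called, against 33.3% of the 36 members of complexes II to V and 36.6% of all genes, a difference that was not tested. The 7 core subunits, which carry out electron transfer, had 5729 tags in Dox+ and 5010 in Dox-, a ratio of 0.896 (0.862 to 0.930). The 28 accessory subunits had 22671 and 22473, a ratio of 1.02 (0.997 to 1.03).

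Among the core subunits, Ndufv1, which binds NADH and FMN, had 332 copies in Dox+ and 195 in Dox-, 1.66-fold lower (1.39 to 1.99), and was called lower. Its partner in the flavoprotein fragment, Ndufv2, had 463 and 457 copies. The tag ratio of Ndufv1 to Ndufv2 was 0.717 in Dox+ and 0.427 in Dox-, a ratio of ratios of 0.595 (0.475 to 0.745). This pair and the other pairs below were chosen after values were seen. Their intervals describe counting error and are no test of a difference. Ndufs1, an iron-sulfur subunit, had 215 and 301 copies and was called higher at a log2 ratio of 0.52, with an interval of 0.26 to 0.78 that reaches below 0.5. Ndufs7 had 1123 and 819 copies and Ndufs3 1039 and 1288. Core subunits thus lay on both sides of 0, and Ndufs8, with 562 and 482 copies, lay between them.

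Ndufb11, an accessory subunit of the membrane arm (chromosome X, 20192452 to 20194745, minus strand, build NCBIM37), had the lowest ratio of all members with 200 combined copies. It had 471 copies in Dox+ and 192 in Dox-, 2.40-fold lower (2.02 to 2.85). Ndufa10, also accessory, had 1538 and 831 copies, 1.81-fold lower (1.66 to 1.97). No other accessory subunit with 200 combined copies was called lower. Those called higher were Ndufa6 and Ndufa11. Ndufa6 had 1230 copies in Dox+ and 2026 in Dox-, 1.69-fold (1.57 to 1.81), and Ndufa11 had 483 and 789, 1.67-fold (1.49 to 1.88). Ndufb9, with the most copies of complex I, had 2097 and 2529 copies, a log2 ratio of 0.30, and Ndufa4 2095 and 2199, a log2 ratio of 0.10. Ndufa7 came close to the limit at 0.47. The other accessory subunits with 200 combined copies had log2 ratios from -0.40, in Ndufv3, to 0.28, in Ndufa1.

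Succinate dehydrogenase, complex II, is shared with the citrate cycle and has 4 subunits. Of the 3 with 200 combined copies none was called, beside 36.6% of all genes. Sdhb, the iron-sulfur subunit, had 1122 copies in Dox+ and 816 in Dox-, a log2 ratio of -0.42 (-0.56 to -0.29). Sdha, the flavoprotein, had 818 and 854 copies, so that the tag ratio of Sdha to Sdhb went from 0.729 to 1.05, a ratio of ratios of 1.44 (1.26 to 1.64). The membrane anchor Sdhd had 1134 and 1019 copies. Sdhc, the other anchor, had only 36 and 63 copies, too few for a call.

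In complex III, 1 member was called higher and 2 lower among 8 with 200 combined copies. That is 37.5%, beside 36.6% of all genes. Uqcrq, a small subunit, had 1322 copies in Dox+ and 2278 in Dox-, 1.76-fold (1.65 to 1.89). Uqcrh, the hinge protein, had 2170 and 1336 copies, 1.59-fold lower (1.48 to 1.70). Uqcrfs1, the Rieske iron-sulfur protein, had 1347 and 845 copies, 1.56-fold lower (1.43 to 1.70). Cyc1, the other nuclear-encoded redox subunit, differed by less than counting error with 1894 and 1793 copies, and the ratio of Uqcrfs1 to Cyc1 tags was 0.711 in Dox+ and 0.471 in Dox-, a ratio of ratios of 0.663 (0.594 to 0.739). Both core proteins were higher in Dox- within the limits. Uqcrc1 had 681 and 817 copies and Uqcrc2 717 and 926, log2 ratios of 0.30 and 0.40, and their ratio to each other did not differ beyond counting error (0.929, 0.805 to 1.07). Uqcr11, with the most copies of the complex, had 3368 and 4385 copies, a log2 ratio of 0.42. Uqcrb had 721 and 565 copies, and Uqcr10, with 71 and 77, was under 200.

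Of the 10 members of complex IV with 200 combined copies, 2 were called higher and 1 lower, 30% in all beside 36.6% of all genes. Among its 9 general subunits, 2 (22.2%) were called higher and none lower, beside 18.8% and 17.8% of all genes. Of the 9, 7 had a log2 ratio above 0. Together they went from 23749 to 28415 tags, a ratio of 1.23 (1.20 to 1.25). Cox7b (chromosome X, 103211039 to 103217789, plus strand) had 1534 copies in Dox+ and 2865 in Dox-, 1.91-fold (1.80 to 2.04). Cox5a had 2340 and 3555 copies, 1.56-fold (1.48 to 1.64). Its fellow Cox5b had 1669 and 1532, and the tag ratio of Cox5a to Cox5b went from 1.40 to 2.32, a ratio of ratios of 1.66 (1.52 to 1.81). Cox4i1, the gene of complex IV with the most copies, had 6938 and 8138, a log2 ratio of 0.26 (0.22 to 0.31). Cox8a lay just under the limit at 0.49 and was not called, with 1630 and 2239 copies, and Cox6b1 had 1816 and 2254. The copies of Cox6c (5049 and 5079), Cox7c (2250 and 2267) and Cox6a1 (523 and 486) were almost equal. Cox7a2l, a factor of respiratory supercomplexes, was the only complex IV gene called lower, with 1101 and 735 copies, 1.46-fold (1.33 to 1.61).

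Cycs, the electron carrier between complexes III and IV, had 976 copies in Dox+ and 1428 in Dox- and was called higher, at a log2 ratio of 0.58 (0.47 to 0.70). No other member belongs to this step.

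**Figure D2:**
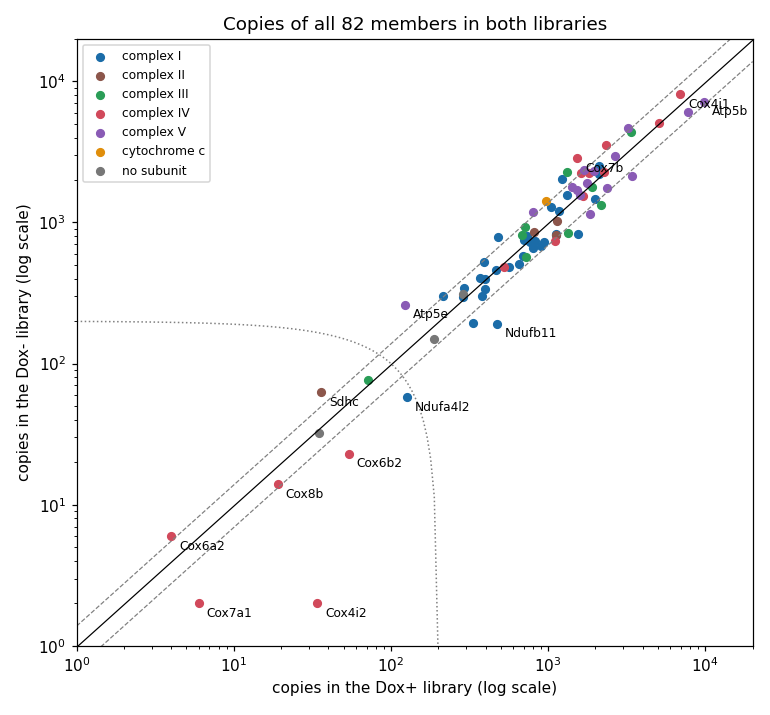
Copies of each of the 82 members in the Dox+ library (x axis) and the Dox- library (y axis), both log scales, coloured by complex. The solid line is equal share of clean tags, dashed lines are log2 ratios of -0.5 and 0.5, and the dotted curve is 200 combined copies. Most members lie along the line above 200 combined copies, and Cox4i2, with 34 and 2 copies, lies farthest from it.

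ATP synthase, complex V, was the complex with the most tags, and all 15 members passed 200 combined copies. There were 4 called higher and 2 lower, 40% in all beside 36.6% of all genes. In the F1 head, which makes ATP, Atp5a1 (the alpha subunit) had 3213 copies in Dox+ and 4695 in Dox- and was called higher, at a log2 ratio of 0.58 (0.52 to 0.65). Atp5b (beta) had 9807 and 7195, a log2 ratio of -0.41, which is within the limits. Atp5c1 (gamma) had 3414 and 2122 and was called lower, 1.57-fold (1.49 to 1.66). Alpha and beta are present in equal number in the enzyme, but copies of different genes were not read as relative levels. Only the change of their tag ratio between libraries is read here. It went from 0.328 in Dox+ to 0.653 in Dox-, a ratio of ratios of 1.99 (1.89 to 2.10). The tag ratio of alpha to gamma was 0.941 in Dox+ and 2.21 in Dox-, a ratio of ratios of 2.35 (2.19 to 2.52). Of the central stalk, Atp5e (epsilon; chromosome 2, 174286573 to 174289606, minus strand) had 123 and 262 copies, 2.18-fold (1.75 to 2.73), the highest ratio among members with 200 combined copies. Atp5d (delta) had 1518 and 1699, and the ratio of ratios of Atp5e to Atp5d was 1.90 (1.51 to 2.40).

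The c ring, which turns with the proton flow, is built of 1 mature protein made from 3 genes. Atp5g3 had 7801 copies in Dox+ and 6037 in Dox-, Atp5g1 1590 and 1554, and Atp5g2 797 and 1190. Only Atp5g2 passed the limit, 1.53-fold (1.40 to 1.67). The share of Atp5g3 in the tags of the family went from 76.6% (75.7 to 77.4) to 68.8% (67.8 to 69.7), and that of Atp5g2 from 7.82% (7.31 to 8.36) to 13.6% (12.8 to 14.3). Shares of Atp5g1 were 15.6% and 17.7%.

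In the peripheral stalk, which holds the head in place, Atp5j was called higher, just past the limit. It had 1703 and 2356 copies, a log2 ratio of 0.50 (0.41 to 0.59). Atp5f1 had 2351 and 1768 copies, a log2 ratio of -0.38, while Atp5h (2669 and 2975) and Atp5o (1761 and 1903) lay within the limits. Of the small membrane subunits, Atp5k had 1856 and 1150 copies and was called lower, 1.58-fold (1.46 to 1.70). Atp5l had 1946 and 2328 copies and Atp5j2 1419 and 1772, so that these subunits also lay on both sides of 0.

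Complex IV has subunits with isoforms made in few tissues, and these had few tags in both libraries. Together Cox4i2, Cox6a2, Cox6b2, Cox7a1 and Cox8b had 117 tags in Dox+ and 47 in Dox-, a ratio of 0.411 (0.287 to 0.582). None reached 200 combined copies, so none could be called. Cox4i2, an isoform known from lung and from low oxygen (chromosome 2, 152579909 to 152590773, plus strand), had 34 copies in Dox+ and 2 in Dox-, a ratio of 0.0602 (0.00701 to 0.235). Its share of the COX4 tags was 0.488% (0.338 to 0.681) and 0.0246% (0.00298 to 0.0887). Cox6b2, known from testis, had 54 and 23 copies, 2.89% (2.18 to 3.75) and 1.01% (0.641 to 1.51) of the COX6B tags. The heart and skeletal muscle isoforms had the fewest copies. Cox6a2 had 4 and 6, Cox7a1 6 and 2, and Cox8b 19 and 14, and the interval of each ratio included no change. Striated muscle markers summed to 3926 tags in Dox+ and 1382 in Dox-. Of 9 measured, 2 reached 200 combined copies and were called lower, beside 17.8% of all genes. The part of striated muscle in these isoform values was not tested.

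Ndufa4l2, a paralog of Ndufa4 known to be induced by low oxygen and found in pericytes, had 127 copies in Dox+ and 58 in Dox-, 185 in all and thus under 200. Its ratio was 0.468 (0.337 to 0.643), and its share of the tags of the pair went from 5.72% (4.79 to 6.76) to 2.57% (1.96 to 3.31). Ndufa4 is counted with complex I by its symbol but is now known as a subunit of complex IV. Markers of pericytes were lower in Dox- as well. Without Ndufa4l2 the 7 markers summed to 1114 tags in Dox+ and 664 in Dox-, a ratio of 0.610 (0.554 to 0.673). Of 4 with 200 combined copies 3 were called lower, namely Cspg4, Kcnj8 and Rgs5, beside 17.8% of all genes. The part of pericytes in the values of Ndufa4l2 and Cox4i2 was not tested. In RNA of whole uteri, fewer cells of a type and less RNA per cell cannot be told apart.

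**Figure D3:**
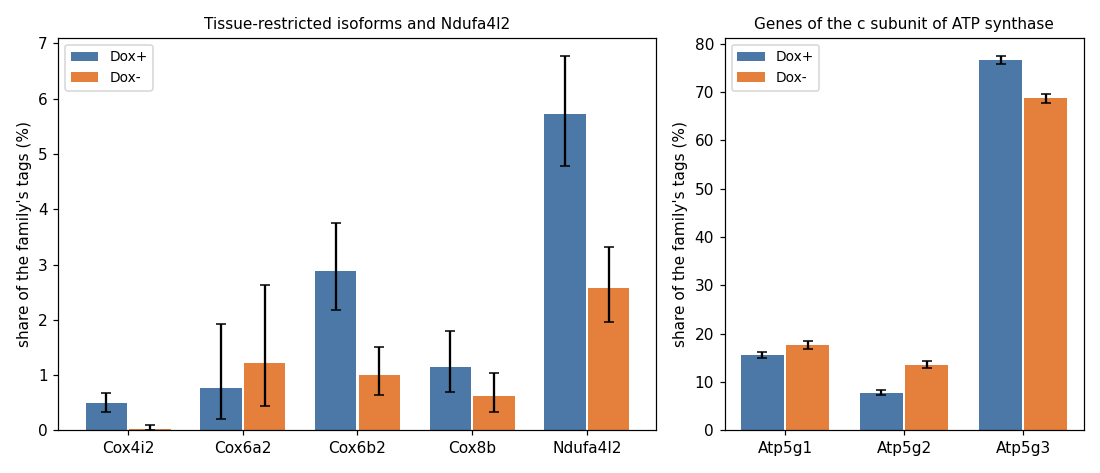
Share of the tags of each isoform family (y axis, %) held by the named gene in the Dox+ and Dox- libraries, with 95% exact counting intervals. Shares of Cox4i2, Cox6b2 and Ndufa4l2 are lower in Dox- with intervals apart, those of Cox6a2 and Cox8b overlap, and Atp5g2 takes a larger share of the c subunit tags.

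Outside the symbol pattern, 4 further genes of complexes I and V were measured. Usmg5, a small subunit of ATP synthase, had 4765 copies in Dox+ and 8404 in Dox-, a log2 ratio of 0.85 (0.80 to 0.90). The other three were not called. Ndufab1, the mitochondrial acyl carrier protein in complex I, had 1076 and 757 copies, Atpif1, the inhibitor of ATP synthase, had 2330 and 2255, and 2010107E04Rik had 1652 and 1926. Genes encoded in mitochondrial DNA were not analysed here.

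Assembly factors insert cofactors or join subunits and are not part of the finished complexes. Of 30 measured, 20 had 200 combined copies. Of these, 6 (30.0%) were called lower and none higher, beside 17.8% and 18.8% of all genes. Their median log2 ratio was -0.08. The 6 were Ndufaf2 and Ndufaf3 for complex I, Cox10, Cox19 and Sco2 for complex IV, and Atpaf1 for the F1 head. Ndufaf2 had 221 and 115 copies, a log2 ratio of -0.91 (-1.25 to -0.58), and Ndufaf3 had 160 and 104, a log2 ratio of -0.59. Cox10, needed for heme A, had 154 and 86 copies, a log2 ratio of -0.81, while the copper factors Cox19 and Sco2 had 188 and 110, and 197 and 120. Atpaf1 had 182 and 110 copies. Of the assembly factors with the most copies, Cox17 had 422 and 397, Uqcc 427 and 337, and Sdhaf2 322 and 383. The 30 together had 4770 tags in Dox+ and 4339 in Dox-, a ratio of 0.932 (0.894 to 0.971). The 10 under 200 combined copies could not be called. All of them except Sco1, with 78 and 70 copies, had log2 ratios above 0. Only the interval of Ttc19, with 78 and 120 copies, excluded no change, at a log2 ratio of 0.66 (0.23 to 1.09). The lack of higher calls therefore holds only above the limit of 200.

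Of 20 measured regulators of mitochondrial biogenesis and of mitochondrial DNA, 11 had 200 combined copies. There was 1 called higher and 1 lower, 18.2% in all beside 36.6% of all genes, and the median log2 ratio was 0.15. Ssbp1, which binds single-stranded mitochondrial DNA, had 119 and 208 copies, a log2 ratio of 0.84, and Mterfd2 had 154 and 106, a log2 ratio of -0.50. Yy1 had 328 and 325 copies, Gabpa 290 and 215 and Polrmt, the mitochondrial RNA polymerase, 189 and 259. Nrf1, named here because its motif was searched, had 63 and 61 copies. Among carriers and pores of the mitochondrial membranes none of the 14 genes with 200 combined copies was called, beside 36.6% of all genes. Their median was 0.15. Higd1a came close to the limit with 1105 and 1525 copies. The phosphate carrier Slc25a3 had 2275 and 2632 copies, and the ADP/ATP carriers Slc25a5 and Slc25a4 had 2174 and 2004, and 2025 and 1993.

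**Figure D4:**
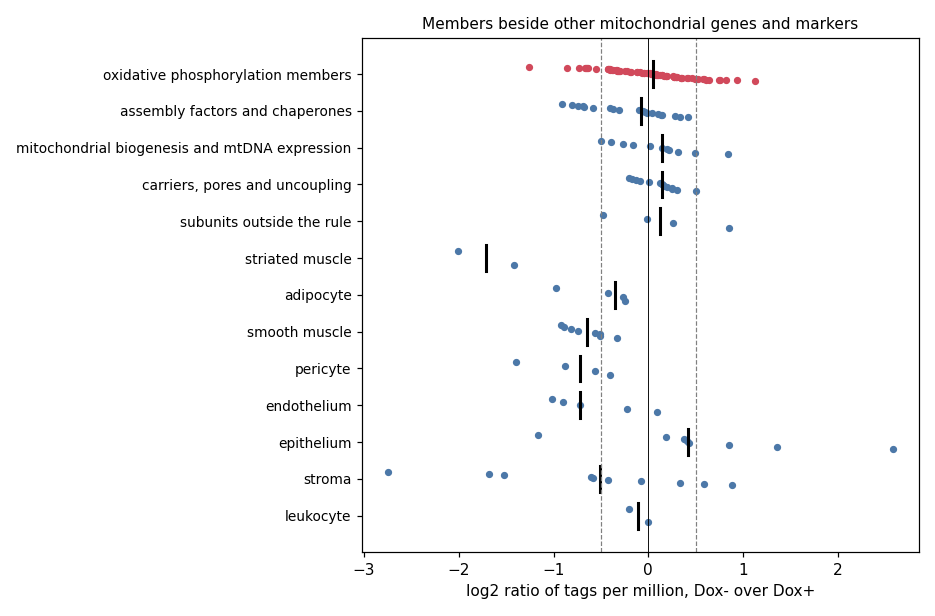
Log2 ratio (Dox- over Dox+, x axis) of the 73 members, of other mitochondrial gene lists and of cell type marker lists, each for genes with at least 200 combined copies. Points are genes, black bars are list medians, and dashed lines are -0.5 and 0.5. Members centre near 0 at a median of 0.05, smooth muscle markers lie to the left at -0.65, and epithelial markers centre to the right at 0.42.

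Markers of the cell types of the uterus were present in both libraries, and several lists differed between them. Smooth muscle markers summed to 39209 tags in Dox+ and 26368 in Dox-, and 7 of 8 with 200 combined copies were called lower, namely Actg2, Myh11, Cnn1, Acta2, Des, Smtn and Lmod1. Of the endothelial markers 3 of 5 (Cdh5, Tie1 and Cldn5) were called lower, with sums of 1450 and 966. Epithelial markers summed to 5358 and 7945, with Elf3, Epcam and Muc1 called higher and Cldn4 lower among 8. Stromal markers split, with Col1a1 and Lum called higher and Hoxa10, Hoxa11, Hand2, Vim and Nr2f2 lower among 10, and sums of 54922 and 59594. Col1a1 alone held 23017 and 33696 of these tags, and the median log2 ratio of the 10 was -0.50. Striated muscle markers had 3926 and 1382 tags, of which Acta1 held 3385 and 1241, and Tnni2 was also called lower. Adipocyte markers had 1973 and 1446 tags, with Adipoq called lower, and leukocyte markers 800 and 902. The part of these cell types in the values of the oxidative phosphorylation genes was not tested.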

How the data were processed

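Each library was made from pooled total RNA of 3 uteri at G2.5. After removal of tags that were only adaptor, of low quality or seen once, the authors aligned the rest to mouse reference mRNAs of build mm9, and deposited counts of unambiguous tags per gene without normalization. They also deposited TPM, the copies per 1000000 clean tags with no length correction, from which the clean tags of each library were recovered here. The aligner and the restriction enzyme are not given in the sources used here, and the submitters' processing notes name CASAVA. The labels describe fragmented mRNA while the methods describe tags, and this was not resolved. Copies of different genes are numbers of tags and were not read as relative levels. Tags that match several genes were not counted, which can lower subunits with processed pseudogenes. The deposited columns of ratios, P-values and FDR hold the authors' own comparison and were not used.

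Counted tags summed to 4437506 (Dox+) and 4218459 (Dox-). Genes with 200 combined copies were compared by the log2 ratio of shares of clean tags, without a pseudocount, with limits of -0.5 and 0.5 from the methods of the study. Intervals are at 95% and cover counting error only. Ratios of ratios are conditional odds ratios with exact intervals. Positions are from GENCODE on NCBIM37 (mm9), promoters from RefSeq on GRCm38.p6. The members and lists were chosen with earlier results of these data known. The text names every called member, the 3 members of each complex with the most copies, every isoform, every member under 200 combined copies, and the called and most abundant genes of the lists, of which the called marker genes are given by name and each marker list by its sum. The values of 1 member are not reported here. The 8 pairs of subunits and the motifs were chosen after values were seen. Alternatives were TMM scaling, subtraction of the median, other filters and folds, the Audic-Claverie test, the exact test of edgeR with an assumed coefficient of variation of 0.2, a pseudocount of 1, means, counts per kb and trends over 10 deciles of GC content and length. Scripts were tested on simulated data. Versions were edgeR 4.0.16 under R 4.3.3, and scipy 1.17.1, numpy 2.4.6 and pandas 2.3.3 under Python 3.11.15.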

Additional observations from a re-analysis of the deposited data

How the results depend on the processing

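With TMM scaling, which lowers all log2 ratios by 0.02, and with the median of all genes subtracted, 17 of the 19 calls were kept, and Atp5j and Ndufs1 were lost. An added Audic-Claverie test at an FDR below 0.05 compares the 2 libraries and not the conditions. It removed no call among the members and none among all genes, so it adds nothing about the members. A fold of 1.5 left 7 members higher and 7 lower, 9.59% each, beside 15.2% and 14.7% of all genes. A fold of 2 left 1 higher (Atp5e) and 1 lower (Ndufb11), 1.37% each, beside 4.61% and 5.62% of all genes. With an assumed coefficient of variation of 0.2 between pools, the exact test of edgeR called 0 members higher and 0 lower, and 147 and 174 of all genes. That coefficient is an assumption, since no second pool was measured. The median of complex IV moved from 0.16 to 0.043 with a minimum of 20 combined copies, and to 0.043 without a filter, where isoforms with few copies enter. The summed log2 ratio of complex I moved from -0.013 to -0.037 with TMM and to -0.041 without Ndufb9. That of complex V moved from -0.071 to -0.095 with TMM and to 0.019 without Atp5b, and that of complex III from 0.12 to -0.012 without Uqcr11. Per kb of transcript, Ndufa4l2 held 1.33% of the tags of its pair in Dox- and Atp5g1 3.13% of those of its family. With trends over GC content and length subtracted, an alternative chosen after seeing the data, 16 of the 19 calls were kept, Cox7a2l, Cycs and Ndufs1 were lost, and Cox8a, Ndufa7 and Uqcr11 were gained. With Ndufa4 and Ndufa4l2 in complex IV and the genes outside complexes I to V left out, also chosen after seeing the data, 10 members were higher and 8 lower. These were 14.3% and 11.4% of 70 members, beside 18.8% and 17.8% of all genes. The isoform share of COX7B was not run, since Cox7b2 was not analysed here. For COX7A, where Cox7a2 was not analysed here, Cox7a2l held 99.7% of the tags in Dox- and 99.1% per kb. No paired analysis was possible because each group has 1 library. Members under 200 combined copies have wide counting intervals.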
